A study of Homo sapiens with 12 samples.

Results

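The genes followed here encode the subunits of Polycomb repressive complex 2 (PRC2), chosen by name as its core subunits EZH2, EZH1, EED, SUZ12, RBBP4 and RBBP7 and its accessory subunits MTF2, PHF19, JARID2 and AEBP2. They are 10 of the 58735 genes in the deposited tables, and all 10 passed the low-count filter that kept 16646 genes for testing. PolyA RNA was sequenced from C4.2B, a human castration-resistant prostate cancer cell line, in 4 arms of 3 libraries each. At the doses the study's methods give for this line, the AKTi arm received the AKT inhibitor ipatasertib at 0.25 µM for 24 hours. The EZH2i arm received the EZH2 inhibitor tazemetostat at 1 µM for 6 days before and throughout those 24 hours. The combination arm received tazemetostat in the same way, with ipatasertib added for the last 24 hours, and the DMSO arm received vehicle. All arms spent the last 24 hours in medium with charcoal-stripped serum, which is low in androgen. What the arms without tazemetostat received in the 6 days before is not stated for these libraries. The single agents therefore differed in exposure time as well as in target, and the arms are those of 1 cell line. The design asks what each inhibitor, alone and together, did to the RNA of the complex that one of them targets.

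PRC2 places methyl groups on lysine 27 of histone H3 (H3K27), and the trimethylated form marks silenced genes. EZH2 or its relative EZH1 carries the methyltransferase site, EED and SUZ12 are needed for activity, and RBBP4 or RBBP7 holds histones. MTF2 and PHF19 define one form of the complex, PRC2.1, and JARID2 with AEBP2 defines the other, PRC2.2. EZH2 is often raised in advanced prostate cancer and in dividing cells, whereas EZH1 is usually found in cells that divide little. Tazemetostat blocks the enzyme, and RNA levels do not show how active or abundant the proteins were.

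The libraries held 14133755 to 22276417 counts on genes. All 9 luminal prostate markers were present, at 50.02 to 3980 CPM (counts scaled to the size of the library), and the 9 markers of basal, neuroendocrine and leukocyte cells stayed under 1 CPM in every library. Of 3 fibroblast markers, COL1A1 reached 17.6 CPM and COL3A1 1.74 CPM, while DCN stayed at or under 0.322 CPM. The share of counts on mitochondrial genes moved with treatment, from 2.37% to 3.36% in DMSO libraries, 3.93% to 4.29% with AKTi, 4.35% to 5.31% with EZH2i and 5.14% to 5.64% with the combination, and its part in the values below was not tested. Fewer cells expressing a gene and less of its RNA per cell cannot be told apart in bulk libraries. Plates were seeded in triplicate, and the labels do not say that replicates were independent experiments, so p-values measure the spread between these libraries. Values below are CPM scaled by the trimmed mean of M-values (TMM), in the order of replicates A, B and C. The TMM factors differed by arm, at 0.929 to 0.937 in DMSO, 0.965 to 0.979 with AKTi, 1.03 to 1.04 with EZH2i and 1.05 to 1.09 with the combination. Values are relative to the other genes of each library, and the amount of RNA per cell is not known from them. Fold changes, standard errors (SEs) and Benjamini-Hochberg adjusted p-values come from the edgeR quasi-likelihood test over all genes tested, with 0.05 as the threshold.

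The promoters of a few subunits are shown because several members moved together and because genes of the cell cycle, many of them controlled by E2F factors, moved with them. The 300-base RefSeq windows around the start sites of all 10 members were searched on both strands for the E2F words TTCCCGC or TTCGCGC or TTGCCGC or TTGGCGC. A word was found for 8 of 10 members, against 15.3% of 27305 genes searched in the same way. Those genes were not matched to the members in type, expression or number of start sites, so the shares do not test for enrichment. The word CCAAT, which can share letters with TTGGCGC on the opposite strand, was found for 7 of 10 members and for 39.7% of genes. In the stretches below (GRCh38.p14, each 5′ to 3′ on the strand of the gene), capitals mark the E2F words. EZH2, SUZ12, RBBP4 and MTF2 are given as subunits whose RNA fell, EZH1 as a subunit whose RNA rose although it holds a word, and JARID2 as a riser without one.
EZH2, chr7:148884273-148884339, minus strand: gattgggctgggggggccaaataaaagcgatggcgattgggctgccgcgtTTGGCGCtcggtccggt
SUZ12, chr17:31936769-31936835, plus strand: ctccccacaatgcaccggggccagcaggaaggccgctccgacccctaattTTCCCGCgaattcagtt
RBBP4, chr1:32651115-32651184, plus strand: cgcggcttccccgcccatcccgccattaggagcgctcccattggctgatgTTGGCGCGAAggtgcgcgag
MTF2, chr1:93079238-93079304, plus strand: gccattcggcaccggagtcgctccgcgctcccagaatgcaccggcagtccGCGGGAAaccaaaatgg
EZH1, chr17:42745139-42745205, minus strand: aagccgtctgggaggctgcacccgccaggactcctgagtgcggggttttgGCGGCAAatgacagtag
JARID2, chr6:15246009-15246068, plus strand: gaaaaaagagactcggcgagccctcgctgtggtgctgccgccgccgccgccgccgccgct
With the start site counted as base 1, the word began at base 3 in EZH2 and at base 6 in MTF2, and it lay at -188 in SUZ12, at -115 in EZH1 and at -43 and -40 in RBBP4, where both strands carry overlapping words. In RBBP7 and PHF19 a word lay in the window of the second listed start site, and AEBP2 had one at -149. EED and JARID2 had none in their windows. These matches describe letters only. Among the subunits whose RNA fell in every treated arm, EZH2, SUZ12, RBBP4, RBBP7 and MTF2 held a word and EED did not. Among those that rose in every treated arm, EZH1 held a word and JARID2 did not. Whether E2F factors act at these promoters was not tested.

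With AKTi, 6 of the 10 subunits fell and 3 rose against DMSO, where 42.5% of all tested genes were called, 20.6% higher and 21.9% lower. With EZH2i, 7 fell and 2 rose, where 64.1% of genes were called, 32.6% higher and 31.5% lower. With the combination, again 7 fell and 2 rose, where 73.2% of genes were called, 38% higher and 35.2% lower. The median log2 change of the members was -0.23, -0.32 and -0.66 in the 3 comparisons, and the median over all genes was 0.01, 0.03 and 0.06. The 3 comparisons share the DMSO libraries. The members that fell in all 3 were EZH2, EED, SUZ12, RBBP4, RBBP7 and MTF2, and those that rose in all 3 were EZH1 and JARID2, while PHF19 and AEBP2 each lacked a call in at least one comparison.

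**Figure D1:**
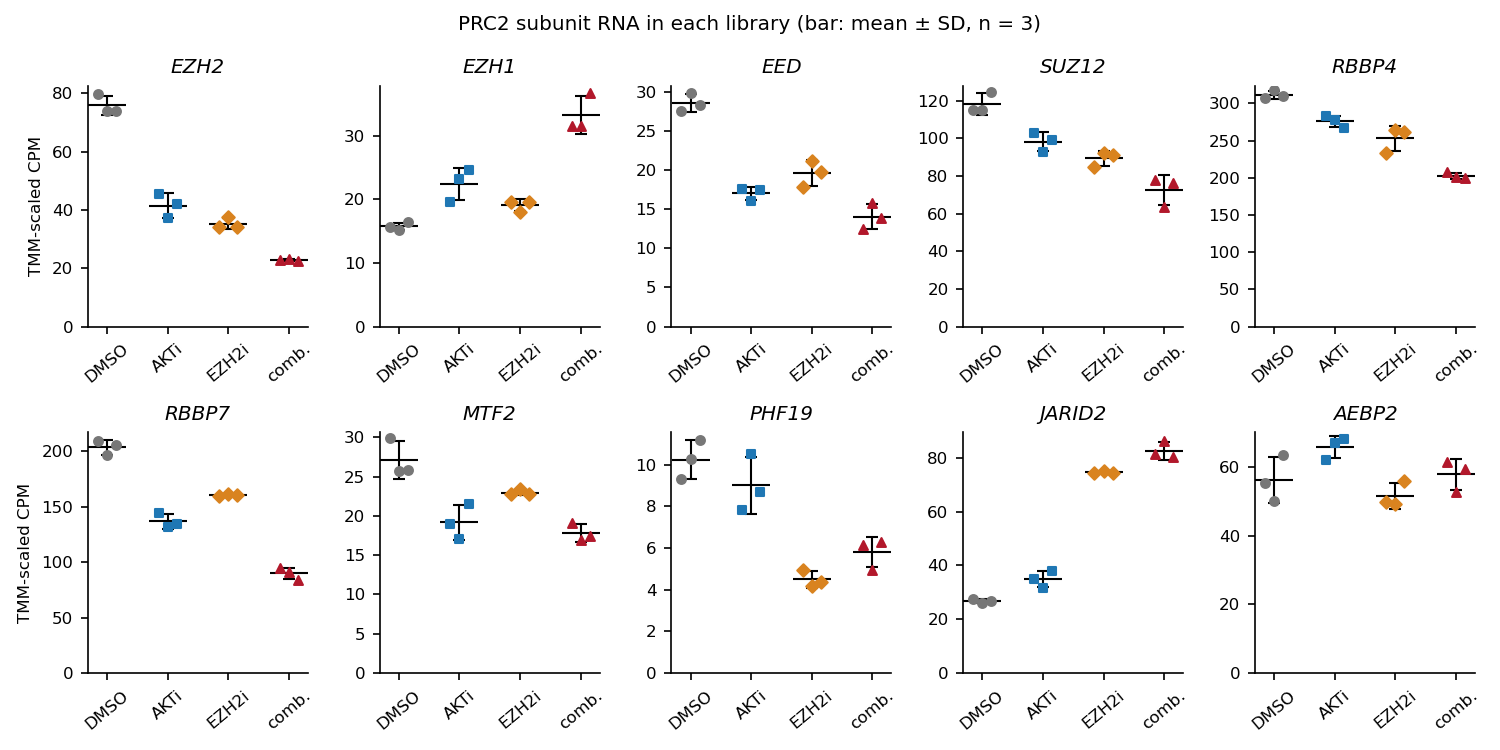
TMM-scaled CPM (y axis, from 0) of the 10 PRC2 subunits in each of the 12 libraries by arm (x axis), with points for libraries and bars for the mean ± SD of 3. EZH2 steps down from 75.8 CPM in DMSO to 22.8 CPM with the combination, EZH1 steps up from 15.7 to 33.3 CPM, and JARID2 is high in both arms that received EZH2i.

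The catalytic subunits moved in opposite directions. EZH2 (chr7:148807383-148884321, minus strand, hg38) stood at 79.6, 74.0 and 73.8 CPM in the DMSO libraries and at 45.4, 37.1 and 42.1 CPM with AKTi. It stood at 34.1, 37.5 and 34.2 CPM with EZH2i and at 22.8, 23.1 and 22.5 CPM with the combination. Every treated library lay below every DMSO library, every combination library lay below every single-agent library, and the AKTi and EZH2i libraries overlapped. EZH2 fell by 0.87 on the log2 scale with AKTi (SE 0.08, adjusted p = 7.44e-12), by 1.10 with EZH2i (SE 0.08, adjusted p = 2.16e-15) and by 1.73 with the combination (SE 0.08, adjusted p = 4.83e-21), which is 1.83-, 2.15- and 3.33-fold. The tazemetostat target thus had less RNA in the arms that received tazemetostat, and it also had less in the arm that received only ipatasertib. The combination was lower than AKTi alone by 0.87 and lower than EZH2i alone by 0.63 (adjusted p = 1.22e-11 and 4.04e-08).

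EZH1 (chr17:42700275-42745049, minus strand), the second enzyme of the complex, had 15.6, 15.2 and 16.4 CPM in DMSO and 19.6, 23.1 and 24.5 CPM with AKTi. With EZH2i it had 19.6, 17.9 and 19.6 CPM, and with the combination 31.5, 31.5 and 36.7 CPM. The DMSO libraries lay lowest and the combination libraries highest, with the AKTi and EZH2i libraries overlapping in between. EZH1 rose with AKTi (log2 change 0.51, SE 0.10, adjusted p = 0.000126) and with the combination (1.07, SE 0.10, adjusted p = 4.51e-12), a 2.11-fold rise in the latter. Its smaller rise with EZH2i (0.27, SE 0.10, adjusted p = 0.0216) lost its call when any 1 of 4 libraries was left out, DMSO A, DMSO B, EZH2i A or EZH2i C, with adjusted p-values of 0.0553 to 0.159, and when every gene with any count was tested (adjusted p = 0.0507).

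The balance between the enzymes shifted accordingly. Per gene length, as counts scaled to both gene length and library (RPKM), EZH1 made up 11.3%, 11.7% and 12.6% of the summed EZH1 and EZH2 level in DMSO libraries. Its share was 21.9%, 28.8% and 27.4% with AKTi, 27.1%, 23.7% and 27.01% with EZH2i, and 47.3%, 46.9% and 51.4% with the combination. The DMSO libraries were separate from all others, and the single agents overlapped each other. With the deposited gene lengths, the 2 RNAs were about level in combination libraries, with EZH1 ahead in replicate C. The ratio of EZH2 to EZH1 counts, which does not depend on scaling between libraries, was 2.60-fold lower with AKTi, 2.60-fold lower with EZH2i and 7.01-fold lower with the combination. Each exact two-sided permutation test of 3 libraries against 3 gave p = 0.1, the smallest that this design allows, and p = 0.1 after adjustment over the 3 comparisons.

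**Figure D2:**
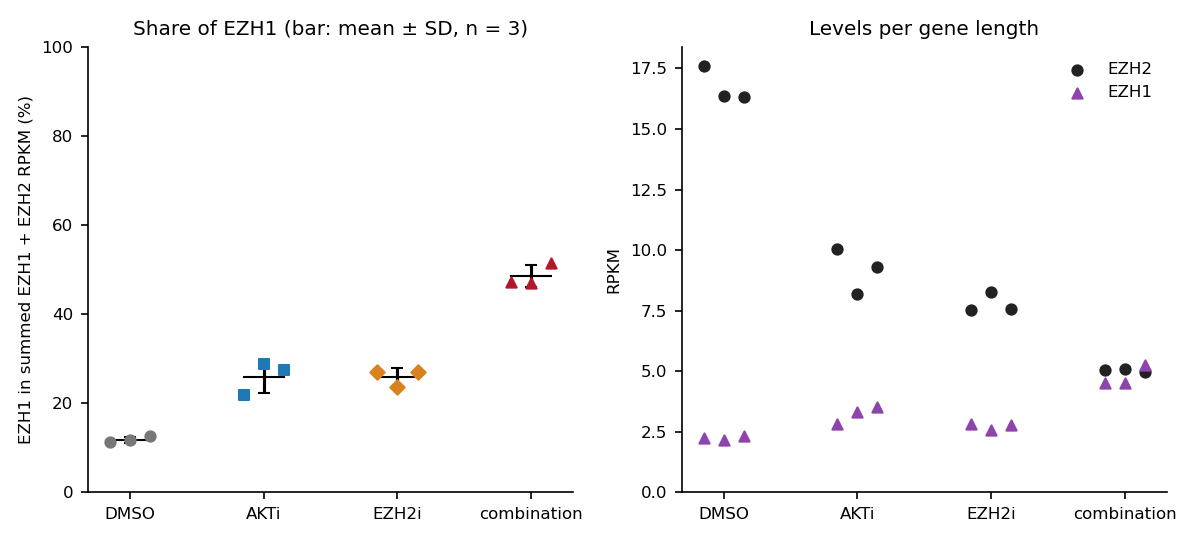
Left, EZH1 as a percentage of summed EZH1 and EZH2 RPKM (y axis, 0 to 100%) in each library by arm, with bars for mean ± SD of 3. Right, RPKM of EZH2 (circles) and EZH1 (triangles) in the same libraries, where both sit near 5 RPKM in the combination and far apart in DMSO (16.8 and 2.25 RPKM on average).

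EED and SUZ12, the scaffold subunits without which EZH2 is inactive, both fell in every treated arm. EED (chr11:86244544-86278813), which binds trimethylated H3K27, had 27.5, 29.9 and 28.3 CPM in DMSO, 17.6, 16.0 and 17.4 CPM with AKTi, 17.9, 21.2 and 19.7 CPM with EZH2i, and 12.5, 15.7 and 13.9 CPM with the combination. All treated libraries lay well below DMSO, and the combination libraries were the lowest. The log2 changes were -0.75 (SE 0.10), -0.54 (SE 0.10) and -1.03 (SE 0.10), with adjusted p-values of 2.23e-07, 1.27e-05 and 3.61e-11. The further step from AKTi to the combination was small (-0.28, adjusted p = 0.0248), and under 6 of 14 alternatives it was no longer called.

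SUZ12 (chr17:31937018-32001045) had 115, 115 and 125 CPM in DMSO, 103, 92.7 and 99.1 CPM with AKTi, 84.7, 92.1 and 91.2 CPM with EZH2i, and 77.8, 63.2 and 76.1 CPM with the combination. No treated library reached the DMSO range, and the spread was widest in the combination. It fell by 0.27, 0.40 and 0.71 on the log2 scale (SE 0.07 each, adjusted p = 0.00124, 2.18e-06 and 1.01e-11). A transcribed copy, SUZ12P1, had 107 to 218 counts per library against 1097 to 2600 for SUZ12 and fell as well (log2 change -0.79 with the combination, adjusted p = 6.90e-06), so a small exchange of reads between the copies was not resolved.

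RBBP4 and RBBP7 are histone-binding proteins that PRC2 shares with many other chromatin complexes, and they were the most abundant subunits in DMSO. RBBP4 (chr1:32651142-32686211) had 307, 317 and 311 CPM in DMSO, 283, 278 and 267 CPM with AKTi, 233, 264 and 261 CPM with EZH2i, and 208, 201 and 200 CPM with the combination. The arms did not overlap in this order, and the steps were small, at -0.18, -0.30 and -0.62 on the log2 scale (SE 0.05 each, adjusted p = 0.00751, 6.79e-06 and 7.46e-13). The AKTi step lost its call when libraries were scaled by their size alone (-0.12, adjusted p = 0.0778) or by their upper quartile (-0.12, adjusted p = 0.0681). A processed copy, RBBP4P1, had 64 to 140 counts per library against 3307 to 6476 for RBBP4. It was lower with the combination (-0.47, adjusted p = 0.0292) and was not called with AKTi (-0.16, adjusted p = 0.559) or EZH2i (-0.01, adjusted p = 0.955).

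RBBP7 (chrX:16839283-16870414, minus strand) had 209, 196 and 205 CPM in DMSO, 144, 132 and 134 CPM with AKTi, 159, 161 and 160 CPM with EZH2i, and 94.5, 90.8 and 84.0 CPM with the combination. The 4 arms formed 4 separate ranges, with EZH2i above AKTi. The log2 changes against DMSO were -0.58, -0.35 and -1.18 (SE 0.06 each, adjusted p = 1.23e-10, 1.18e-06 and 3.45e-20). RBBP7 was the only subunit called in the interaction, which asks whether the combination differs from the sum of both single-agent changes, and where 28.2% of all genes were called, 10.7% higher and 17.5% lower. The combination lay 0.26 on the log2 scale below that sum (-0.26, SE 0.08, adjusted p = 0.0135), and the call was lost without DMSO B (-0.20, adjusted p = 0.0896), EZH2i C (-0.23, adjusted p = 0.0615) or combination C (-0.22, adjusted p = 0.0570). RBBP7 shares 179 exonic bases, 2.44% of its own, with TXLNG on the opposite strand, and whether counting used strand is not given in the sources used here. TXLNG fell as well in all 3 comparisons with DMSO, by 0.31 with AKTi (adjusted p = 0.00111), 1.04 with EZH2i (adjusted p = 2.48e-14) and 1.09 with the combination (adjusted p = 4.11e-15).

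The PRC2.1 subunits differed in which agent they followed. MTF2 (chr1:93079235-93139081), a Polycomb-like protein that brings the complex to CpG islands, had 30.0, 25.7 and 25.8 CPM in DMSO, 19.0, 17.0 and 21.5 CPM with AKTi, 22.8, 23.4 and 22.8 CPM with EZH2i, and 19.1, 16.9 and 17.4 CPM with the combination. It was lowest in the arms with AKTi, whose ranges overlapped. MTF2 fell with AKTi (-0.50, SE 0.10, adjusted p = 0.000107) and with the combination (-0.61, SE 0.10, adjusted p = 1.48e-06). The difference of -0.24 with EZH2i (SE 0.10, adjusted p = 0.0316) was lost under 5 of 14 alternatives, among them the omission of DMSO A (-0.17, adjusted p = 0.188), and the combination did not pass against AKTi (-0.11, 95% interval -0.32 to 0.11, adjusted p = 0.385).

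PHF19 (chr9:120855652-120894896, minus strand), a second Polycomb-like protein and the scarcest subunit, had 9.29, 10.3 and 11.2 CPM in DMSO and 7.81, 10.5 and 8.69 CPM with AKTi. It had 4.96, 4.15 and 4.36 CPM with EZH2i and 6.13, 4.96 and 6.28 CPM with the combination. AKTi and DMSO libraries overlapped, and every library with EZH2i lay below them. PHF19 fell by 1.20 with EZH2i (SE 0.16, adjusted p = 4.28e-08) and by 0.83 with the combination (SE 0.16, adjusted p = 1.48e-05), whereas its difference with AKTi was -0.19 (95% interval -0.50 to 0.12, adjusted p = 0.343). With 71 to 233 counts per library, its intervals were the widest of the members.

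The PRC2.2 subunits went apart as well. JARID2 (chr6:15246296-15522040), a cofactor that binds and stimulates the complex, had 27.7, 25.9 and 26.7 CPM in DMSO, 35.0, 31.8 and 38.1 CPM with AKTi, 74.5, 75.0 and 74.4 CPM with EZH2i, and 81.4, 86.4 and 80.2 CPM with the combination. All 4 ranges were separate, with the large step between the arms without and with EZH2i. JARID2 rose 1.31-fold with AKTi (log2 change 0.39, SE 0.08, adjusted p = 9.35e-05), 2.79-fold with EZH2i (1.48, SE 0.07, adjusted p = 1.74e-19) and 3.09-fold with the combination (1.63, SE 0.07, adjusted p = 2.59e-21). The combination was 0.15 above EZH2i alone, which did not pass (95% interval 0.01 to 0.28, adjusted p = 0.0655), although it did under 4 of 14 alternatives. The antisense gene JARID2-AS1 shares no exonic base with JARID2 and had 3 to 23 counts per library. JARID2-AS1 was also higher with the combination (1.67, adjusted p = 0.00587). It passed the low-count filter only through the combination libraries (1.04 to 1.17 CPM, against 0.202 to 0.516 CPM in DMSO). That filter therefore set the direction of its change.

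AEBP2 (chr12:19404045-19720801), a zinc finger protein that stabilises the complex, had 55.5, 50.01 and 63.5 CPM in DMSO, 62.2, 67.0 and 68.3 CPM with AKTi, 49.8, 49.2 and 55.9 CPM with EZH2i, and 61.4, 52.8 and 59.5 CPM with the combination. Each treated arm overlapped DMSO, whose own libraries were spread most. The log2 differences were 0.22 with AKTi (SE 0.08, adjusted p = 0.0232), -0.13 with EZH2i (95% interval -0.29 to 0.03, adjusted p = 0.151) and 0.03 with the combination (95% interval -0.12 to 0.19, adjusted p = 0.708). The EZH2i difference was called lower without DMSO B (-0.26, adjusted p = 0.00822) or EZH2i C (-0.23, adjusted p = 0.0262). The AKTi call was lost without DMSO A, DMSO B, AKTi B or AKTi C (log2 difference 0.12 to 0.20, adjusted p = 0.0721 to 0.307). With the combination it was called higher under scaling by library size (0.23, adjusted p = 0.00911) or upper quartile (0.22, adjusted p = 0.0112), where the median over all genes also stood higher, at 0.26 and 0.25.

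**Figure D3:**
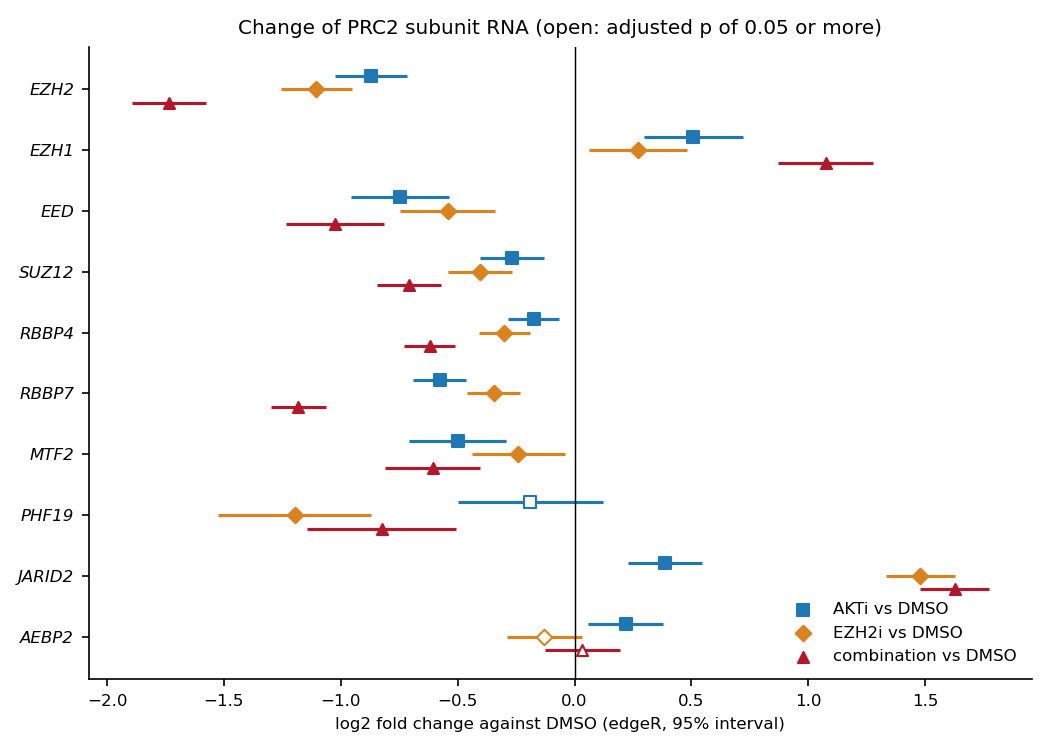
Log2 fold change against DMSO (x axis, edgeR) of each PRC2 subunit (y axis) for AKTi (squares), EZH2i (diamonds) and the combination (triangles), with bars for 95% intervals and open symbols for an adjusted p of 0.05 or more. EZH2, EED, SUZ12, RBBP4, RBBP7 and MTF2 lie left of 0 in all 3 comparisons, and EZH1 and JARID2 lie right of it.

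The arms with the combination were also set against each single agent. Against AKTi, 7 subunits were lower and 2 higher, where 64.2% of genes were called (32.1% higher and 32.1% lower), and the risers were JARID2 (log2 change 1.24, adjusted p = 1.24e-17) and EZH1 (0.57, adjusted p = 4.13e-06). Among those lower, AEBP2 (-0.18, adjusted p = 0.0379) lost its call under 7 of 14 alternatives. Against EZH2i, 6 were lower and 1 higher, where 46.7% of genes were called, 21.1% higher and 25.7% lower. EZH1 was the riser (0.80, adjusted p = 9.82e-09), and RBBP7 fell most (-0.83, adjusted p = 6.49e-15). The members not called there were PHF19 (0.37, adjusted p = 0.0685), JARID2 and AEBP2 (0.16, adjusted p = 0.0850), and under some of the 14 alternatives they were called higher, PHF19 and JARID2 under 4 each and AEBP2 under 6.

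Between the single agents, 3 subunits were higher and 3 lower with EZH2i than with AKTi, where 50.4% of genes were called, 25.4% higher and 25.1% lower. JARID2 (1.09), MTF2 (0.26) and RBBP7 (0.23) were higher with EZH2i, and PHF19 (-1.01), AEBP2 (-0.35) and EZH2 (-0.23) were lower, with adjusted p-values from 1.92e-15 to 0.0320. The EZH2 and MTF2 calls were among the less stable, since the first was lost under 3 of 14 alternatives and the second under 6. Since the exposure lasted 24 hours for one drug and began 6 days earlier for the other, agent and duration cannot be told apart in these differences.

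In the interaction, 9 of the 10 subunits were not called, where 28.2% of all tested genes were called, 10.7% higher and 17.5% lower. EZH2 lay 0.24 above the sum of the single-agent changes (95% interval 0.01 to 0.47, adjusted p = 0.109), EZH1 lay 0.29 above it (95% interval 0.01 to 0.58, adjusted p = 0.124) and PHF19 lay 0.56 above it (95% interval 0.10 to 1.02, adjusted p = 0.0623). JARID2 lay below it (-0.24, 95% interval -0.45 to -0.03, adjusted p = 0.0776). These intervals leave room for departures of a size like that of RBBP7, and they do not show that the changes add up.

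Compared per gene length, the order of the subunits changed. The deposited gene lengths were used, and the levels of different genes relative to each other depend on that choice. In DMSO the levels ran from RBBP4 (32.9 ± 0.561 RPKM, SD, n = 3) and RBBP7 (27.6 ± 0.920) through SUZ12 (18.1 ± 0.858), EZH2 (16.8 ± 0.731), AEBP2 (8.57 ± 1.03), MTF2 (4.60 ± 0.409), JARID2 (4.45 ± 0.148), EED (4.07 ± 0.169) and EZH1 (2.25 ± 0.0875) to PHF19 (1.52 ± 0.140). Neighbours in this order had separate ranges except SUZ12 with EZH2 and MTF2 with JARID2. In the combination RBBP4 still led at 21.4 ± 0.458 RPKM, and JARID2 came next at 13.7 ± 0.551, ahead of RBBP7 at 12.1 ± 0.720. EZH2 (5.03 ± 0.0652) and EZH1 (4.76 ± 0.429) stood side by side with overlapping ranges, as did RBBP7 and SUZ12, and PHF19 remained last at 0.860 ± 0.108.

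**Figure D4:**
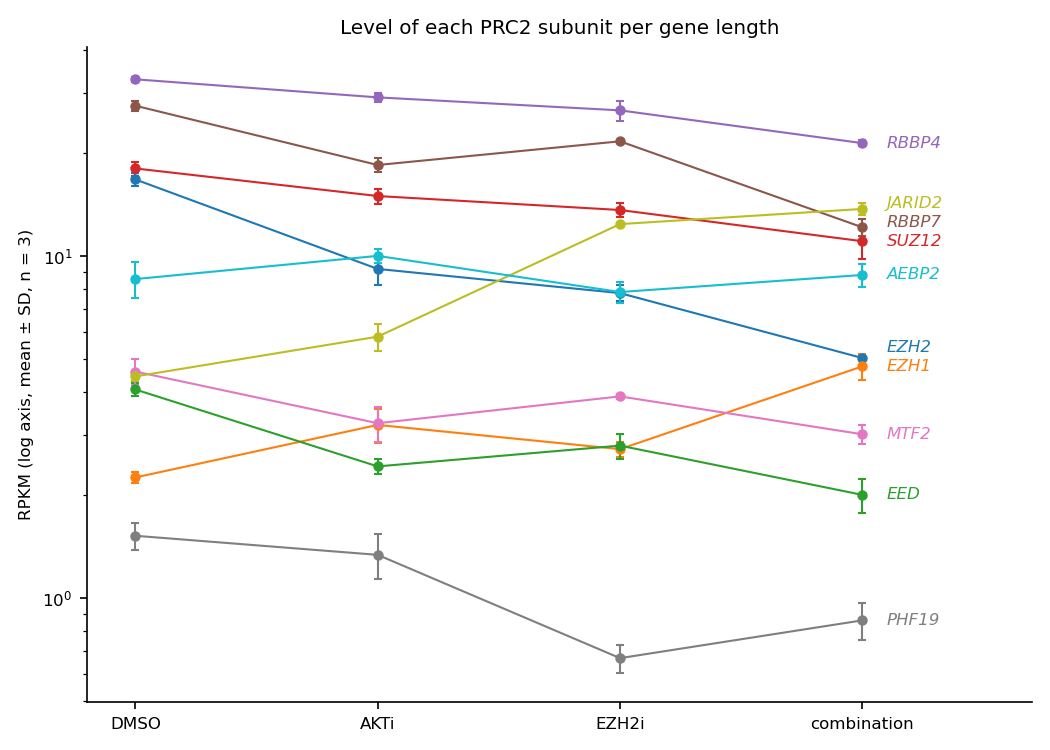
RPKM (y axis, log scale, mean ± SD of 3 libraries) of the 10 PRC2 subunits by arm (x axis), with lines that only join the means of one gene. JARID2 climbs from 4.45 to 13.7 RPKM past MTF2, AEBP2, EZH2, SUZ12 and RBBP7, and EZH2 and EZH1 meet near 5 RPKM in the combination.

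Across the 12 libraries, log2 CPM of EZH2 ran most closely with RBBP4 (Pearson r = 0.944) and SUZ12 (r = 0.944) among the members, and against EZH1 (r = -0.887) and JARID2 (r = -0.881). RBBP7 and EZH1 mirrored each other most tightly (r = -0.984), and PHF19 ran against JARID2 (r = -0.915). AEBP2 followed none of the others closely, with r between -0.346 and 0.548. Among 12856 tested genes, those most like EZH2 were HMGN2, a nucleosome-binding protein (r = 0.995), NUP50, a nuclear pore protein, TIMM21, a mitochondrial import factor, SCML1, and MFN1, which fuses mitochondria (each r = 0.993). Most like EZH1 were HSD17B11, a short-chain dehydrogenase (r = 0.976), PDZRN3, a ubiquitin ligase (r = 0.975), UBXN7 (r = 0.972), ARFGEF3 (r = 0.971) and IRS2, an insulin receptor substrate (r = 0.970). These coefficients describe 12 libraries that share 4 arms, so they mostly reflect the arm means.

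The other PRC2 partners that were not members also split. PHF1, the remaining Polycomb-like protein, had 14.9 to 15.4 CPM in DMSO, 17.1 to 18.005 CPM with AKTi, 14.8 to 22.4 CPM with EZH2i and 33.4 to 36.7 CPM with the combination. Its combination libraries stood apart from all others, and it rose with EZH2i (0.30, adjusted p = 0.0212) and with the combination (1.24, adjusted p = 7.96e-13), lying 0.72 above the sum of the single-agent changes (adjusted p = 0.000478). EPOP, which joins PRC2.1 to elongin, went the other way, from 33.4 to 41.0 CPM in DMSO to 12.9 to 16.1 CPM with the combination (-1.40, adjusted p = 1.82e-14), 0.50 below that sum (-0.50, adjusted p = 0.00995). It was also lower with EZH2i (-0.74, adjusted p = 5.77e-08). LCOR rose with EZH2i (0.22, adjusted p = 0.00598) and with the combination (0.45, adjusted p = 5.16e-07), and LCORL was not called (-0.01 with the combination, adjusted p = 0.919). Both were counted as whole genes, so different products of either gene, and which of them join PRC2, were not told apart. None of these 4 genes was called with AKTi, where 42.5% of all tested genes were called. That share was 64.1% with EZH2i and 73.2% with the combination. EZHIP, an inhibitor of the complex, had at most 4 counts in any library and was not tested. Of the 3 Polycomb-like genes, then, PHF1 rose with the combination while MTF2 and PHF19 fell.

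Enzymes that remove or oppose H3K27 methylation were counted as a list beside the members. KDM6B, an H3K27 demethylase, rose by 0.53 with AKTi, 1.14 with EZH2i and 1.36 with the combination (adjusted p = 2.85e-08, 9.51e-18 and 1.33e-20), while its relative KDM6A was not called in any of the 3 (-0.10 with the combination, adjusted p = 0.0867). Of 10 tested genes for H3K36 methyltransferases, H3K27 acetyltransferases and the PR-DUB complex, 4 rose and 2 fell with AKTi, 4 rose and 2 fell with EZH2i, and 8 rose and 1 fell with the combination, where 42.5%, 64.1% and 73.2% of all genes were called. With the combination the risers included the acetyltransferase gene CREBBP (1.18) and the H3K36 methyltransferase gene ASH1L (0.94), and NSD2, another H3K36 methyltransferase gene, fell (-1.01, adjusted p = 1.42e-17). NSD3 was lower with EZH2i (-0.27) and higher with the combination (0.34). The list median was 0.38 with the combination, against 0.06 over all genes.

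Because RBBP4 and RBBP7 serve other complexes, 25 subunits of NuRD, SIN3, CAF-1, NURF, DREAM and HAT1 complexes were counted too. With AKTi 5 rose and 11 fell, with EZH2i 5 rose and 14 fell, and with the combination 5 rose and 15 fell, at medians of -0.11, -0.28 and -0.36. Over all genes 42.5%, 64.1% and 73.2% were called in these comparisons. By direction, 21.9%, 31.5% and 35.2% were lower and 20.6%, 32.6% and 38% higher. With the combination, 20 called of 25 is near the share in either direction. The list's falls outnumbered its rises there, which was not so over all genes. The largest falls with the combination were those of LIN9 (-2.08), a subunit of the cell cycle complex DREAM, and CHAF1B (-2.06), a subunit of the histone chaperone CAF-1. The largest rises were those of the remodeller genes SMARCA1 (1.84) and CHD3 (1.28). With EZH2i the corresponding extremes were CHAF1B (-1.39), LIN52 (-1.09), SMARCA1 (1.24) and CHD3 (1.10).

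All 22 listed S phase and cycling genes fell with AKTi, with EZH2i and with the combination, at medians of -0.84, -1.36 and -2.84. Of all tested genes, 21.9%, 31.5% and 35.2% were called lower in these comparisons. The list was chosen with earlier results of these data known. The list level, the median over its genes of log2 CPM relative to the DMSO mean, lay between -0.92 and -0.80 in AKTi libraries, between -1.38 and -1.35 in EZH2i libraries and between -2.93 and -2.86 in combination libraries. Over the 10 PRC2 subunits the same measure lay between -0.29 and -0.24, between -0.39 and -0.29, and between -0.77 and -0.59. Both lists were lowest in the combination libraries. The AKTi and EZH2i ranges were separate for the cell cycle list. For the PRC2 subunits they overlapped narrowly, with AKTi down to -0.291 and EZH2i up to -0.288. The subunit median is taken over members that fell and members that rose, so its depth is not comparable with that of the cell cycle list. EED, RBBP7 and MTF2 had lower means with AKTi than with EZH2i, but EED was not called between the single agents (adjusted p = 0.108). With the combination UHRF1 (-5.47) and E2F2 (-5.12) fell most and RRM1 (-1.56) and DNMT1 (-2.15) least, and with EZH2i CDC6 (-1.99) and E2F2 (-1.94) fell most and MKI67 (-0.61) and RRM1 (-0.68) least. In the interaction, 20 of the 22 were called lower and none higher, where 17.5% of all genes were called lower and 10.7% higher. Among the members there was a single call. The part of the cell cycle genes in the fall of PRC2 subunits was not tested.

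**Figure D5:**
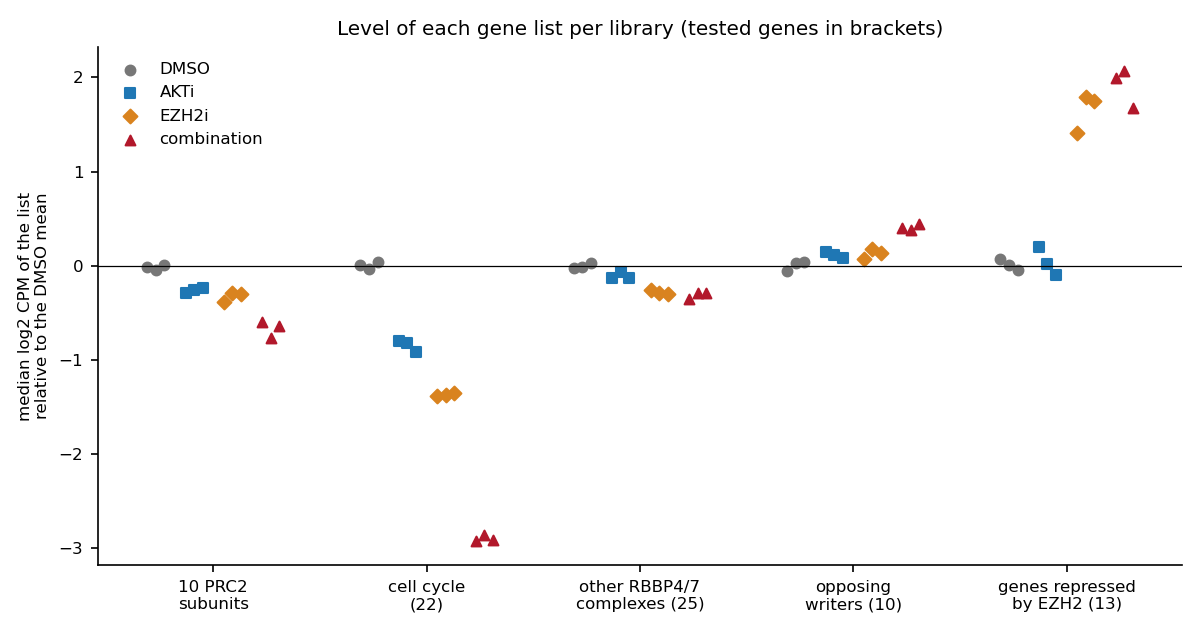
Median log2 CPM of each gene list relative to the DMSO mean (y axis) in each library, for the 10 PRC2 subunits and for the other lists (x axis, tested genes in brackets), with symbols for the 4 arms. The cell cycle list drops to about -2.9 with the combination and the PRC2 subunits to between -0.77 and -0.59, while the list of genes known as EZH2-repressed rises in both arms with EZH2i.

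Genes known as repressed by EZH2 were counted as a list outside the complex. Of 19 such genes, 13 were tested, and 5 rose and 2 fell with AKTi, 9 rose and 2 fell with EZH2i, and 8 rose and 2 fell with the combination, where 42.5%, 64.1% and 73.2% of all genes were called. At least NOV (0.384 to 0.606 CPM in DMSO) and SLIT2 (0 to 0.0959 CPM in DMSO) passed the low-count filter only through the arms with EZH2i, so their place among the risers was set by the filter. The list was partly taken from knowledge of this study, which turns on BMF, and is therefore no independent evidence of its direction. BMF, an activator of apoptosis, rose by 3.22 with EZH2i and by 3.698 with the combination (adjusted p = 5.61e-23 and 1.22e-25), and by 0.66 with AKTi (adjusted p = 0.000394). CDKN1C, a cell cycle inhibitor, rose by 2.996 and 3.85 with EZH2i and the combination. Among the genes that fell were CDKN2A (-0.32 with EZH2i and -0.58 with the combination) and, with the combination, the prostate secretory gene MSMB (-2.47). The EZH2i libraries spread from 24.3 to 39.6 CPM for CDKN2A and overlapped the DMSO libraries (36.5 to 39.4 CPM). MYC, which the study follows mainly as protein and through its target genes, was measured here as RNA. Its RNA was higher with AKTi (0.71) and lower with EZH2i (-1.37) and the combination (-0.32). The mean was 247 CPM in DMSO, 95.4 CPM with EZH2i and 198 CPM with the combination.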

How the data were processed

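PolyA RNA of 12 C4.2B libraries was analysed, 3 in each of 4 arms grouped by the treatment labels. The authors aligned reads to hg38 with STAR and deposited HTSeq counts for 58735 genes, and versions, strand setting and annotation release are not given in the sources used here. A second deposited table holds signal values, the authors' DESeq2-normalized counts. It was checked, and 683928 of 683928 values for the 56994 gene names listed once equalled the count divided by 1 size factor per library, within a relative tolerance of 1e-04, so the counts alone were tested. The other column used was the deposited gene length. The study names 1 sequencing facility or another and does not say which library went where, so no term for it was fitted.

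In R 4.3.3, edgeR 4.0.16 kept 16646 genes with filterByExpr (minimum count 10, minimum total 15) and scaled libraries by TMM. The quasi-likelihood test was fitted to all 12 libraries with 1 mean per arm and each comparison as a contrast, with Benjamini-Hochberg adjustment over all genes and a threshold of 0.05. The interaction is the log2 effect of adding AKTi to EZH2i less its effect on DMSO cells. SE was the absolute log2 fold change divided by the square root of the F statistic. RPKM used the deposited gene lengths, and correlations used log2 CPM with a prior count of 2. Log2 ratios of EZH2 to EZH1 counts (0.5 added to each) were compared by exact two-sided permutation with scipy 1.17.1 in Python 3.11.15. Totals of 14133755 to 22276417 counts gave each member at least 71 counts in every library, and PHF19, with 71 to 233, had the fewest. Replicates of an arm differed by more than sampling noise in all 12 pairs (chi-square per gene 2.53 to 7.50), and each was counted as 1 sample.

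The members and the 6 gene lists were chosen with earlier results of these data known. Named were all members, the other PRC2 partners, from each further list up to 4 genes with the most extreme called changes with EZH2i and with the combination, BMF and MYC, and the 5 genes most correlated with EZH2 and with EZH1 among tested genes with a mean of at least 1 log2 CPM. COL1A1 and the other markers, and neighbouring or copied genes (TXLNG, SUZ12P1, RBBP4P1, JARID2-AS1), were named as checks. The value of 1 gene that the rule names is not reported here. Promoter windows, 250 bases before to 50 after each start, came from RefSeq (GRCh38.p14), in which all 10 members were found by symbol. Member results were recomputed with DESeq2 1.42.0, with 3 other scalings (library size, upper quartile and RLE size factors) and with other low-count filters. A fit of the compared arms alone, the replicate letter as a block and omission of each library in turn were further alternatives. The values of single genes outside the members were not recomputed in these ways. The steps were tested on simulated data.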

Additional observations from a re-analysis of the deposited data

Results flagged for a closer look

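The interaction of RBBP7 was the only member result singled out by a test of the difference itself, namely whether AKTi had the same effect with and without EZH2i. RBBP7 fell by 0.58 on the log2 scale when AKTi was added to DMSO and by 0.83 when it was added to EZH2i, a difference of -0.26 (edgeR quasi-likelihood test, SE 0.08, adjusted p = 0.0135). The call was lost without DMSO B, EZH2i C or combination C (adjusted p = 0.0570 to 0.0896), and 28.2% of all genes were called in the interaction against 1 of the 10 members.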

How the results depend on the processing

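Of 1030 member values recomputed under alternatives, 943 kept their direction and side of the threshold, 41 lost a call, 33 gained one and 13 changed sign, none of the latter where the reported value was called. The 13 were AEBP2 with EZH2i scaled by library size (0.015), AEBP2 with the combination without DMSO B or combination A (-0.089 to 0.13 with 1 library left out), MTF2 between the combination and AKTi scaled by library size (0.031) or upper quartile (0.020), and the interactions of SUZ12 (-0.098 to 0.050, likewise) and AEBP2 (-0.16 to 0.055). The number of members called in the interaction was 1, against 2 with a filter of at least 10 counts in every library and 0 to 2 with 1 library left out. It was 0 without DMSO B, EZH2i C or combination C, and 2 without AKTi B, EZH2i A or combination B. In the other 6 comparisons the count stayed within 1.5 times the reported one. Replicate letters did not pair the libraries, since deviations from the arm means of libraries with the same letter correlated at -0.06 to 0.07 in 18 pairs and 4 of 12 libraries correlated best with their own letter. With the replicate block, 1 member call changed, EZH1 between EZH2i and AKTi (-0.24, adjusted p = 0.0459). The permutation tests of the ratio cannot pass the threshold with 3 libraries per arm, so their stability says nothing. Depth limits PHF19 most, with 71 to 233 counts per library.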
